A study of Rattus norvegicus with 8 samples.

Results

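Heat shock proteins and their co-chaperones were followed in a comparison of large with small retinal ganglion cells of the rat. Retinal ganglion cells are the output neurons of the retina, and they are sorted here by size. The members are 49 genes fixed by name, and a gene's value is the mean of the array probes that the platform annotation assigns to its symbol alone. All 49 were measured, out of 14802 genes with such a probe. They comprise 8 Hsp70 genes of the cytosol and related ones, 3 Hsp110 exchange factors, 4 genes of the Hsp90 system, 5 mitochondrial chaperones, 6 small heat shock proteins, 8 J proteins, 6 BAG proteins and other Hsp70 co-chaperones, 7 subunits of the chaperonin TRiC and 2 heat shock factors.

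Per the labels and the series text, cells filled with the retrograde tracer 4DI-10ASP were isolated from fresh retinas and separated by flow cytometry into large and small ganglion cells, and both fractions were handled with the transcription inhibitor actinomycin D. Total RNA of each fraction went through 2 rounds of linear amplification and was hybridised to two-colour Agilent rat arrays. The series holds 8 arrays, called here by their title numbers 39, 40, 41, 42, 43, 69, 70 and 71, and each sets large against small cells. Only cells that had taken up the tracer could be sorted, and neither strain, age, number of animals nor the size limits of the gates is given in the sources used here.

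Each value is a log2 ratio of the large-cell and small-cell channels, and its direction is unsettled. The labels list large cells as Cy5 and small cells as Cy3 on all 8 arrays, whereas the series text describes a dye swap, and no source says which channel is the numerator. Over all probes, the arrays fell into set 1 (39, 41, 43 and 70) and set 2 (40, 42, 69 and 71), within which Pearson coefficients were all positive, from 0.22 to 0.68 in 12 pairs. Between the sets, 15 of 16 coefficients were negative and the lowest was -0.325. Calls are therefore given for the ratios as deposited and again with the signs of set 2 turned, and a member named without a turned value passed in neither form unless said otherwise. Values are described as positive or negative, and were Cy5 the numerator on each array, positive would stand for more RNA in the large cells. Were set 2 instead a dye swap left unturned, a difference between large and small cells would have opposite signs in the sets. Equal values in both sets would then not stand for such a difference. Which reading holds was not tested. Ratios carry no level, so the presence of ganglion cell RNA in both channels could not be checked. Of 11 ganglion cell markers 10 were measured, with 8 negative means and 2 positive ones, and Thy1 (-0.30 ± 0.11, SD, n = 8) and Slc17a6 (-0.64 ± 0.38) passed the test described below on the negative side. With the signs of set 2 turned, 5 of the 10 means were on each side, and neither Thy1 (0.05) nor Slc17a6 (0.27) passed. Other ganglion cell markers passed in that form, 2 positive (Rbpms and Pou4f3) and 3 negative (Isl1, Pou4f2 and Sncg).

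Heat shock proteins bind unfolded stretches of other proteins and keep them from clumping. Hsp70 proteins work in cycles: J proteins deliver a client and start ATP hydrolysis, and Hsp110 and BAG proteins exchange the nucleotide and release the client. Hsp90 takes over clients such as kinases and steroid receptors, TRiC encloses actin and tubulin while they fold, and the small heat shock proteins hold clients without ATP. Part of the family is made at all times in neurons, whose long axons depend on protein transport and folding, and part is induced by stress through heat shock factor 1, which binds repeats of the bases GAA in alternating orientation, called heat shock elements.

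The promoter sequences of 5 members are shown because they carry matches to this element, 4 with matches of 3 units and Dnajb1 with a match of 2 units, and because these genes differ in how their ratios behaved. Windows came from RefSeq (rat build GRCr8), which matched 41 of the 49 members. Those not matched were Hspa1b, Hspa12a, Hsp90aa1, Hspb2, Dnaja2, Dnajb4, St13 and Hsf1. The 250 bases before each gene start were searched on both strands for 3 units (GAANNTTCNNGAA or TTCNNGAANNTTC) and for 2 units (GAANNTTC or TTCNNGAA, which lie within the longer ones). Capitals mark the 3-unit matches and, in Dnajb1, the 2-unit match, and each window is written 5′ to 3′ on the strand of its gene. Hspa8 lies on the plus strand (chr8:50080264-50080513), Hsph1 on the plus strand (chr12:10427118-10427367) and Dnajb1 on the minus strand (chr19:41431142-41431391).
Hspa8: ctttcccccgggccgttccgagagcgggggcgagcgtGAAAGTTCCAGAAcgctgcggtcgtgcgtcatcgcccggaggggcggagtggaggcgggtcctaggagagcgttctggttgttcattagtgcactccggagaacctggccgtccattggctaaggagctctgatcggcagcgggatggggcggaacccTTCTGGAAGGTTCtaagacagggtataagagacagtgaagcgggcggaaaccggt
Hsph1: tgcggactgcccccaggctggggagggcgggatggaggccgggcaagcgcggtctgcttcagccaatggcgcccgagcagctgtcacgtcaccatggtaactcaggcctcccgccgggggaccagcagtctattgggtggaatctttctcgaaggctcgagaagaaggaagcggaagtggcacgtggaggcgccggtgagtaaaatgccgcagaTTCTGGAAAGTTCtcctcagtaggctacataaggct
Dnajb1: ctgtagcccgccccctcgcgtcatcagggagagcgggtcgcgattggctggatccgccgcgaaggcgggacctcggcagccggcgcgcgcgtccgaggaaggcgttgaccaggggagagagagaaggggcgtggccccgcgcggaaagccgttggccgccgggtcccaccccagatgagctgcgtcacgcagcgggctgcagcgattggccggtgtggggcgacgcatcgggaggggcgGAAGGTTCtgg

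The genes of the mitochondrial pair Hspd1 (Hsp60) and Hspe1 (Hsp10) start close together on opposite strands, and 1 stretch with 2 overlapping matches lies in the windows of both (chr9:64084256-64084285). By the annotation, the windows of both genes overlap the span of Hspd1, so the Hspd1 window lies partly within its own gene. The shared stretch is written here first on the strand of Hspe1 (plus) and then on that of Hspd1 (minus).
Hspe1: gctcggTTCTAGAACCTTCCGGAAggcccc
Hspd1: ggggccTTCCGGAAGGTTCTAGAAccgagc

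Matches of 3 units were found in 4 of the 41 member windows (Hspa8, Hsph1, Hspd1 and Hspe1), while 222 of all 33469 windows held one (0.663%). The stretch shared by Hspd1 and Hspe1 is counted in both of their windows. Matches of 2 units were found in 15 of 41, against 4534 of 33469 (13.5%). In Hspa8 the 3-unit matches begin at positions -213 and -55 relative to the gene start, in Hsph1 at -36 (with a further 2-unit match at -105, left in lower case), and in Dnajb1 the 2-unit match begins at -11. The window of Hspa1a held neither form, but by the annotation it overlaps another gene, Hspa1l. Whether this window holds the promoter of Hspa1a was not tested, so the gene is not described here as lacking the element. A match describes the letters in the window and not a bound site.

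In the 8 arrays as deposited, Hspa1a, the stress-inducible cytosolic Hsp70, passed on the positive side, and Hspa13, an Hsp70-related ATPase associated with microsomes, on the negative side. The other 47 members did not pass the test. It was limma's intercept model over 14801 genes with Benjamini-Hochberg adjustment at 0.05, and it called 2.19% of all genes (0.568% on the positive and 1.62% on the negative side), against 2 of 49 members. With so few calls, the members' count does not stand apart from this background. Means were positive for 33 members and negative for 16, and their median was 0.05, against -0.01 over all genes. Per the labels, each biological replicate was run as 2 technical subreplicates, with no word on which arrays pair up, so 8 arrays are fewer than 8 independent samples and adjusted p-values over them may be too small. In sorted bulk RNA, fewer cells of a type and less RNA per cell cannot be told apart.

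With the signs of set 2 turned, 9 members passed the test, 5 positive and 4 negative, none of them Hspa1a or Hspa13. In that form 28.1% of all genes passed, 13.6% positive and 14.5% negative. Means were then positive for 31 members and negative for 18, with a median of 0.07 against -0.00 over all genes. The sets were drawn from the correlations of these same values, so agreement after turning was favoured in advance. Adjusted p-values of the turned form, and of later fits with the sets as a covariate, describe the values and lend no independent support.

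**Figure D1:**
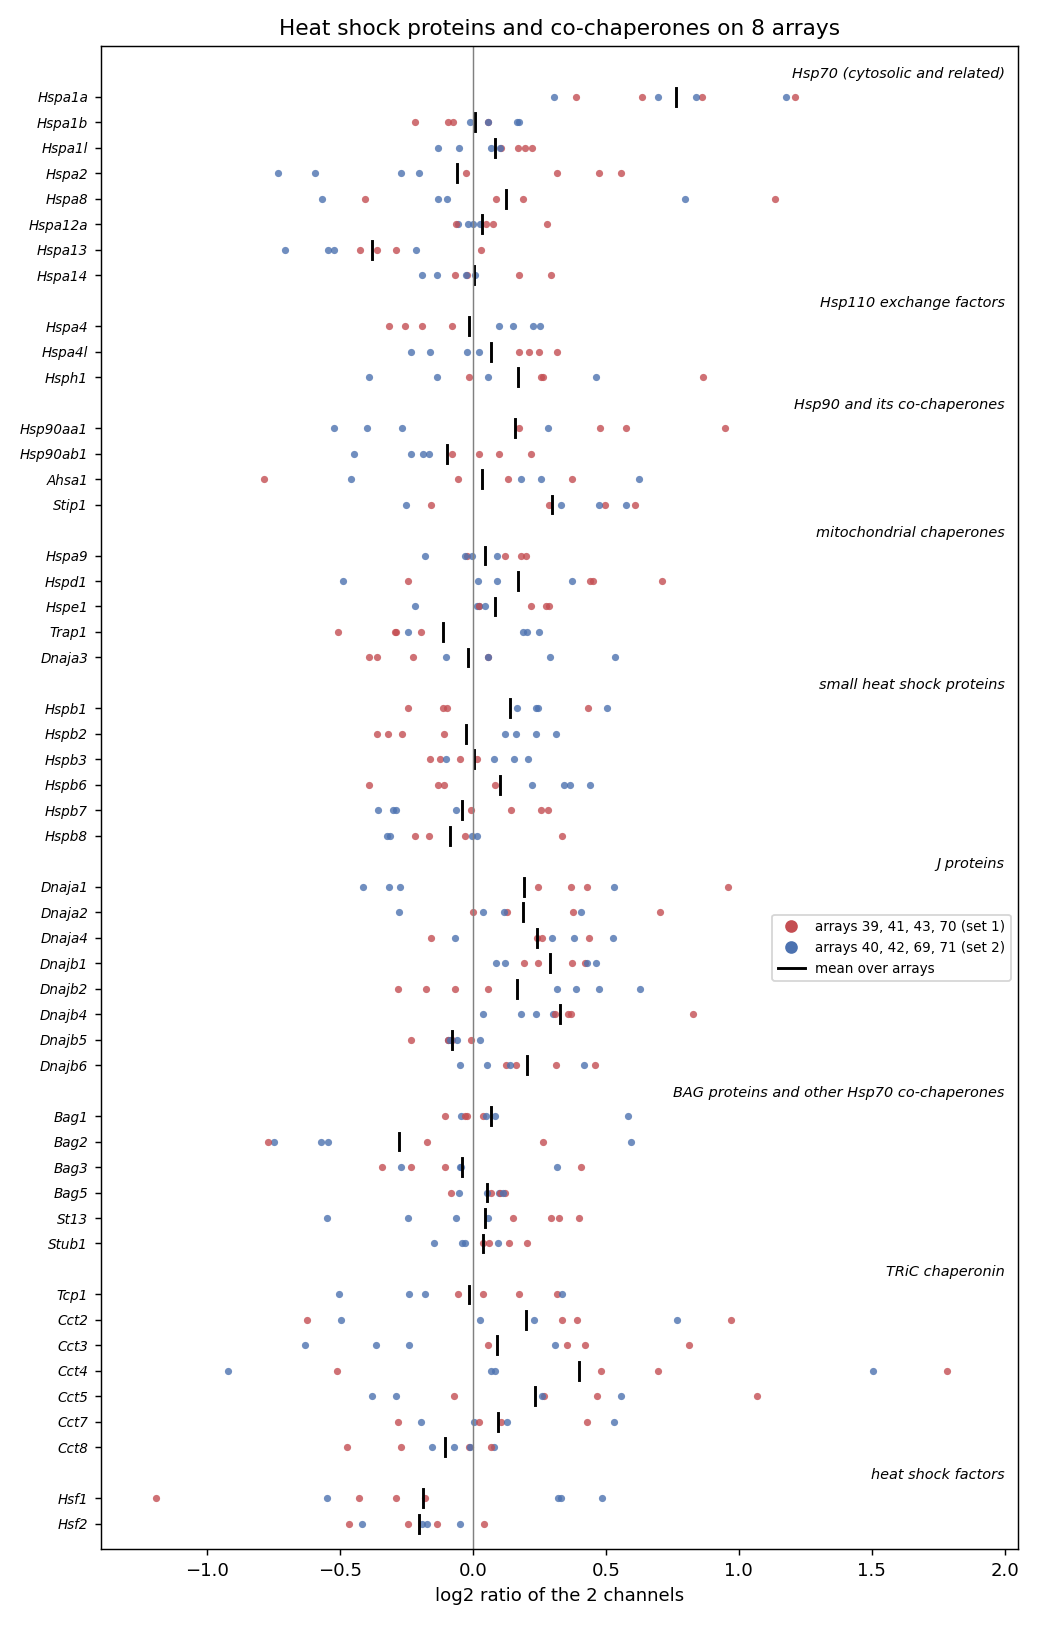
Log2 ratios (x axis) of the 49 members, each row a gene and each point 1 array, coloured by set of arrays, with a black bar at the mean over arrays. Hspa1a lies above 0 on all 8 arrays, from 0.31 to 1.21, whereas most members straddle 0, and Cct4 spans -0.92 to 1.78.

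Among the 8 Hsp70 genes of the cytosol and related ones, Hspa1a passed on the positive side, Hspa13 on the negative side, and the other 6 did not pass. Hspa1a gave ratios of 1.21 on array 39, 1.18 on array 40, 0.86 on array 41, 0.84 on array 42, 0.39 on array 43, 0.31 on array 69, 0.64 on array 70 and 0.70 on array 71. All 8 values were positive. Neighbouring arrays are taken here as pairs in rising order of number, 39 and 40, 41 and 42, 43 and 69, and 70 and 71. The numbers 43 and 69 are thus not consecutive, and each pair holds 1 array of each set. The arrays of each pair lay closer to each other than to the rest. The mean was 0.76 ± 0.33 (SD, n = 8), or 1.70-fold, with a limma adjusted p of 0.00958, and the sets of arrays hardly differed (0.77 in set 1 and 0.75 in set 2). Turning the signs of set 2 therefore brought the mean to 0.01 (limma adjusted p = 0.984).

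Both probes of Hspa1a had a mean of 0.76, but they did so in different ways. Probe 11687 read 1.92, 0.74, 0.50 and 0.91 on the arrays of set 1 and 1.34, 0.24, -0.08 and 0.55 on those of set 2. Probe 34107 read 0.50, 0.98, 0.28 and 0.36 on set 1 and 1.01, 1.44, 0.70 and 0.85 on set 2. Each set-2 value of the first probe was thus below its neighbouring set-1 value and each set-2 value of the second was above it, and the average of the probes hid this. Fitted singly over all probes, of which 1.75% were called, probe 34107 passed (limma adjusted p = 0.0188) and probe 11687 did not (limma adjusted p = 0.094). Rat Hspa1a and Hspa1b are near-identical paralogs, and which of them the probes detect was not tested, since probe sequences were not analysed here.

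Hspa13, measured by 1 probe, ranged from -0.71 to 0.03 with a median of -0.39. It was negative on 7 of 8 arrays, and the exception was array 41. The mean was -0.38 ± 0.23 (SD, n = 8), 1.30-fold in size, with a limma adjusted p of 0.0486, just inside the threshold. With the signs of set 2 turned its mean was 0.12 (limma adjusted p = 0.561). Leaving out any 1 array other than array 41 ended the call, with limma adjusted p-values from 0.0754 to 0.138.

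Hspa8, the constitutive Hsp70 (Hsc70) that also strips clathrin from vesicles, ran from -0.57 to 1.14 with a median of -0.00 over its 5 probes. Its extremes were 1.14 (array 41) and 0.80 (array 42) at the top and -0.40 (array 39) and -0.57 (array 40) at the bottom. Among the probes of Hspa8, probe 15145 departed from this order, at 0.44 on array 39, 0.34 on array 41 and -0.36 on array 42. The mean of 0.13 ± 0.58 (SD, n = 8) lay well within this spread (limma adjusted p = 0.896). Hspa1b, the second stress-inducible Hsp70 gene, gave values from -0.22 to 0.17 with a median of 0.02 and a mean of 0.01 ± 0.13. Its only probe thus stayed near 0 where those of Hspa1a did not.

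The other 4 genes of this group had means between -0.06 and 0.09. Hspa2, known for its part in spermatogenesis, averaged -0.06 ± 0.48, with 0.33 in set 1 and -0.45 in set 2, and with turned signs its mean of 0.39 passed the test (limma adjusted p = 0.00752). Hspa1l (0.09 ± 0.12), Hspa12a (0.04 ± 0.11) and Hspa14 (0.00 ± 0.16) varied little, and the sets of Hspa1l did not overlap.

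None of the 3 Hsp110 exchange factors, which release nucleotide from Hsp70, passed the test as deposited. Hsph1 (Hsp110), which has a 3-unit element in its promoter, ranged from -0.39 to 0.86 with a median of 0.16 and averaged 0.17 ± 0.39 (limma adjusted p = 0.69). Its highest values were those of arrays 41 and 42, 0.86 and 0.46. Hspa4l ranged from -0.23 to 0.32 with a median of 0.10 and averaged 0.07 ± 0.20, all 4 values of set 1 lying above all 4 of set 2. Hspa4 showed the reverse order, with -0.21 in set 1 and 0.18 in set 2 around a mean of -0.01 ± 0.22. With turned signs Hspa4l (0.17, limma adjusted p = 0.035) and Hspa4 (-0.20, limma adjusted p = 0.0106) passed on opposite sides. Probe 25657 of Hspa4 was negative on all arrays of set 1 and positive on all of set 2. Its other probe, 14454, did not share this pattern, at 0.18 on array 43 and -0.25 on array 40.

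The Hsp90 system gave no call as deposited. Stip1 (Hop), which hands clients from Hsp70 to Hsp90, had the largest mean, 0.30 ± 0.33, and ranged from -0.25 to 0.61 with a median of 0.40. Its 6 values on arrays 39 to 69 were all positive and those of arrays 70 and 71 were negative, -0.16 and -0.25 (limma adjusted p = 0.248). Hsp90aa1, the inducible cytosolic Hsp90, ranged from -0.52 to 0.95 with a median of 0.23 and averaged 0.16 ± 0.52. It was positive on all 4 arrays of set 1 (mean 0.54) and negative on 3 of 4 of set 2 (mean -0.23), and passed with turned signs (0.38, limma adjusted p = 0.0309).

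Its constitutive partner Hsp90ab1 ranged from -0.45 to 0.22 with a median of -0.12 and averaged -0.10 ± 0.21, with sets that did not overlap. Ahsa1, which speeds the ATPase of Hsp90, averaged 0.03 ± 0.46, with lows of -0.79 (array 39) and -0.46 (array 40) and highs of 0.37 (array 41) and 0.62 (array 42). Its neighbouring arrays were alike while its mean was near 0.

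The 5 mitochondrial chaperones had no call in either form of the signs. Hspd1 (Hsp60), which folds imported proteins, ranged from -0.49 to 0.71 with a median of 0.23 and a mean of 0.17 ± 0.40 (limma adjusted p = 0.707). Hspe1, its lid, ranged from -0.22 to 0.29 with a median of 0.03 and a mean of 0.08 ± 0.17, although both genes share the promoter stretch shown above. On array 39 they stood on different sides, Hspd1 at -0.24 and Hspe1 at 0.29. Trap1, the mitochondrial Hsp90, ranged from -0.51 to 0.25 with a median of -0.22 and averaged -0.11 ± 0.28. Hspa9, the mitochondrial Hsp70, averaged 0.04 ± 0.13, and its J protein Dnaja3 averaged -0.02 ± 0.32.

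None of the 6 small heat shock proteins passed as deposited, and 3 means were positive and 3 negative. Hspb1 (Hsp27), which is induced in many injured neurons, ranged from -0.24 to 0.50 with a median of 0.20 and averaged 0.14 ± 0.27 (limma adjusted p = 0.638). Its highest values were 0.43 and 0.50 on arrays 39 and 40, and its 2 probes differed, with means of 0.33 and -0.05. Hspb6 (Hsp20) ranged from -0.39 to 0.44 with a median of 0.15 and averaged 0.10 ± 0.29. Hspb8, which works with Bag3 in selective autophagy, ranged from -0.32 to 0.34 with a median of -0.10 and averaged -0.09 ± 0.22.

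Hspb2 (-0.03 ± 0.27), Hspb3 (0.00 ± 0.13) and Hspb7 (-0.04 ± 0.26), known mainly from muscle, had means near 0. Turning the signs of set 2 gave calls for Hspb2 (-0.24, limma adjusted p = 0.00564), Hspb6 (-0.24, limma adjusted p = 0.0229) and Hspb7 (0.21, limma adjusted p = 0.0168). By their gene averages, related genes of this family thus passed on opposite sides. For Hspb7 the side depended on the probe. Probe 8677 read -0.69, -0.44, -0.42 and -0.35 on set 1 and 0.18, 0.53, 0.42 and 0.45 on set 2. Probe 19885 read 0.46, 0.61, 1.10 and 0.885 on set 1 and -0.57, -1.27, -1.15 and -0.44 on set 2. Probe 32634 had the signs of probe 19885 on every array.

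The J proteins, the partners that stimulate Hsp70, had positive means in 7 of 8 members. The median was 0.20 (0.04 with turned signs, when 5 were positive), and the mean over the group was positive on all 8 arrays, from 0.01 on array 40 to 0.44 on array 41. None passed the test as deposited, whereas 4 had an unadjusted limma p below 0.05, a share of 13.1% over all genes. Dnajb1 (Hsp40), the inducible partner of Hspa1a, ranged from 0.09 to 0.47 with a median of 0.31 and was positive on 8 of 8 arrays. Its mean was 0.29 ± 0.15 (limma adjusted p = 0.0564), and its 3 probes were all positive in mean, from 0.22 to 0.40. Array by array the probes differed, and only probe 38026 was positive throughout. Probe 21272 read -0.19, -0.25 and -0.15 on arrays 42, 69 and 71, and probe 21364 read -0.09 and -0.02 on arrays 39 and 69.

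Dnajb4, a close relative of Dnajb1, ranged from 0.04 to 0.83 with a median of 0.30, was likewise positive on 8 of 8 arrays and averaged 0.33 ± 0.23 (limma adjusted p = 0.0856). When the sets were fitted as a covariate, 6.27% of all genes passed (1.91% positive and 4.36% negative), and Dnajb1 (limma adjusted p = 0.0228) and Dnajb4 (limma adjusted p = 0.0222) joined Hspa1a and Hspa13. By gene averages over probes, the same sign on every array was seen in 3 members, Hspa1a, Dnajb1 and Dnajb4, all positive. It was seen in 4.44% of all genes (1.55% positive on every array). With turned signs the means of these 3 members were 0.01, 0.02 and 0.14 and none passed.

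Dnaja4 ranged from -0.16 to 0.53 with a median of 0.28 and averaged 0.24 ± 0.24 (limma adjusted p = 0.234). It was negative on arrays 39 and 40 and positive on the other 6. Dnajb6, which suppresses the aggregation of polyglutamine proteins, averaged 0.20 ± 0.18 and was positive on 7 of 8 arrays. Dnaja1 (0.19 ± 0.48) and Dnaja2 (0.19 ± 0.30) varied more, and Dnajb5 was the exception in sign, at -0.08 ± 0.08. Dnajb2, a J protein enriched in neurons, averaged 0.17 ± 0.33 from -0.12 in set 1 and 0.45 in set 2, and passed with turned signs (-0.28, limma adjusted p = 0.0208).

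None of the 6 BAG proteins and other Hsp70 co-chaperones passed as deposited. Bag2, an inhibitor of the ubiquitin ligase Stub1 (CHIP), had the largest mean in size, -0.28 ± 0.53 over 7 arrays, since its value on array 39 was at the end of the ratio scale and was set to missing. It ranged from -0.77 to 0.60 with a median of -0.55, and neighbouring arrays differed, with -0.17 on array 43 against 0.60 on array 69 and 0.27 on array 70 against -0.55 on array 71. Bag1 ranged from -0.10 to 0.58 with a median of 0.01 and averaged 0.07 ± 0.22. Bag5 ranged from -0.08 to 0.12 with a median of 0.08 and averaged 0.05 ± 0.08.

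Bag3, which is induced by heat shock factor 1 and steers clients to autophagy, ranged from -0.34 to 0.41 with a median of -0.08 and averaged -0.04 ± 0.27. It was 0.41 and 0.32 on arrays 39 and 40 and negative on all the others. Stub1 (0.04 ± 0.11) stayed near 0. St13 (Hip), which stabilises Hsp70 with its client, averaged 0.05 ± 0.32, with 0.29 in set 1 and -0.20 in set 2, and passed with turned signs (0.25, limma adjusted p = 0.025).

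The 7 TRiC subunits among the members did not pass in either form of the signs. The median over these 7 of the SD between arrays was 0.48, the highest of the 9 groups of members, against 0.27 over the 49 members and 0.28 over all genes. Cct4 ranged from -0.92 to 1.78 with a median of 0.28. It read -0.51 on array 39, -0.92 on array 40, 1.78 on array 41, 1.5 on array 42, 0.69 on array 43, 0.09 on array 69, 0.48 on array 70 and 0.07 on array 71. The mean of 0.40 ± 0.93 (SD, n = 8) was far inside this spread (limma adjusted p = 0.667).

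Cct5 ranged from -0.38 to 1.07 with a median of 0.26 and averaged 0.24 ± 0.48, and Cct2 ranged from -0.63 to 0.97 with a median of 0.28 and averaged 0.20 ± 0.56. Arrays 41 and 42 were the highest in Cct2, Cct4, Cct5 and Cct7. Single probes of a gene did not all share this. On these arrays probe 33778 of Cct7 read 1.42 and 1.38, probe 2095 read -0.05 and 0.04, and probe 14801 read -0.08 and 0.17. Probe 24218 of Cct3 read 1.83 and 1.62, probe 18688 read 0.65 and -0.25, and probe 1012 read -0.04 and -0.45. Cct3 averaged 0.09 ± 0.48, Cct7 0.09 ± 0.28 and Tcp1 -0.01 ± 0.29, while Cct8 stood apart at -0.11 ± 0.19 with values from -0.47 to 0.08. One of the 3 probes of Cct5 lacked a value on array 40, and its mean (-0.32) was opposite to those of the other 2 (0.54 and 0.49).

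Both heat shock factors had negative means and neither passed in either form of the signs. Hsf1, the main switch of the heat shock response, ranged from -1.19 on array 41 to 0.48 with a median of -0.23 and averaged -0.19 ± 0.56 (limma adjusted p = 0.776). Its set means were -0.52 and 0.15. Hsf2, which acts in development and alongside Hsf1, ranged from -0.47 to 0.04 with a median of -0.18, was negative on 7 of 8 arrays and averaged -0.20 ± 0.17 (limma adjusted p = 0.219).

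**Figure D2:**
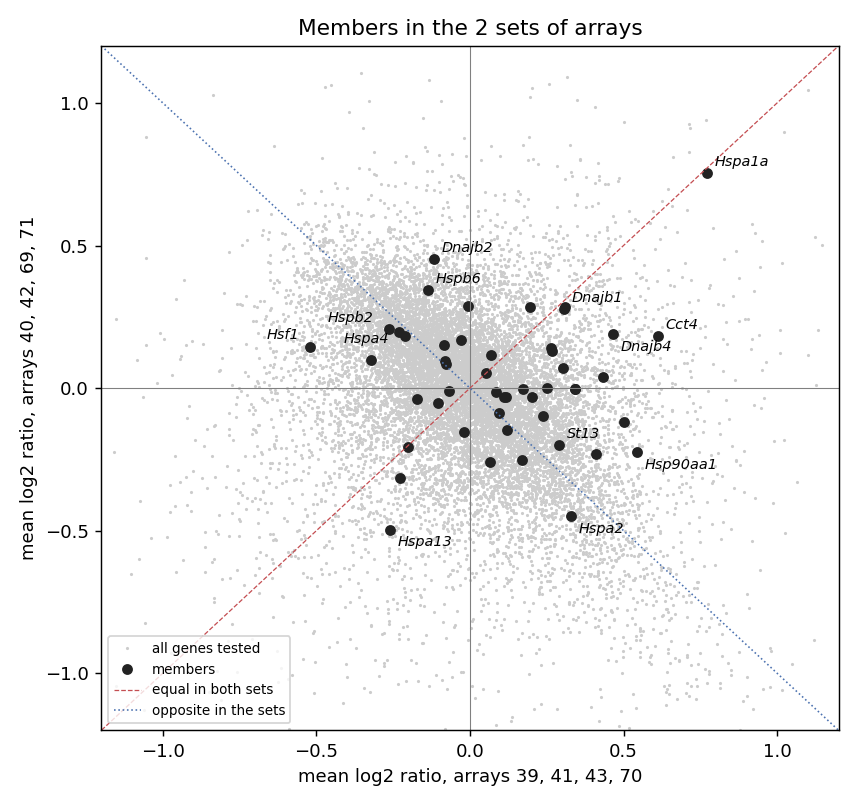
Mean log2 ratio of each gene over arrays 39, 41, 43 and 70 (x axis) and over arrays 40, 42, 69 and 71 (y axis), with all tested genes in grey and members in black. Genes beyond the axis ends are not drawn. Hspa1a lies at 0.77 and 0.75, next to the line of equal values, while Hspa2 (0.33 and -0.45) and Dnajb2 (-0.12 and 0.45) lie near the line of opposite values.

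The sets of arrays did not overlap in 11 of the 49 members, against 34.9% of all genes. Set 1 was above set 2 in 7 of them (Hspa1l, Hspa2, Hspa4l, Hsp90ab1, Hspb7, Dnajb4 and St13) and below it in 4 (Hspa4, Hspb2, Hspb6 and Dnajb2), against 16.8% and 18.1% of all genes. The median size of the difference between the set means was 0.24 over the members and 0.30 over all genes. Both the count and the median were lower for the members than over all genes, and this difference was not tested.

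A second pattern ran across the members by neighbouring title numbers. After the set means were removed, the SD between the means of arrays 39 and 40, 41 and 42, 43 and 69, and 70 and 71 was in the highest 10% of genes for 9 of 49 members (18.4%), against 10% of all genes by construction. They were Cct4, Hspa8, Cct2, Ahsa1, Hsf1, Bag2, Cct5, Hspd1 and Dnaja1. In Bag2, which lacked a value on array 39, neighbours were not alike. Its median difference within neighbours was 0.72, larger than its SD between their means, 0.44. Cct4 ranked 61 among 14801 genes, Hspa8 352 and Cct2 385. The median of this SD was 0.18 over the members and 0.16 over all genes. The pairing of neighbours is not in the labels, joins the non-consecutive numbers 43 and 69, and was not tested.

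The pattern did not run the same way in all of these genes. The 7 TRiC members averaged -0.18 on array 39, -0.44 on array 40, 0.78 on array 41, 0.57 on array 42, 0.20 on array 43, -0.01 on array 69, 0.20 on array 70 and -0.09 on array 71. Hspa8 and Hspd1 were likewise lowest on arrays 39 and 40 and highest on array 41. Hspa1a, Hspb1 and Bag3 were instead highest on arrays 39 and 40, and Hspb1 and Bag3 were lowest on array 41. Hsf1 was lowest on arrays 41 and 42, at -1.19 and -0.55.

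Markers of other cells moved along these arrays as well. All 10 microglia and macrophage markers were measured, and they averaged 0.84 on array 39 and again on array 40, -0.41 on array 41, -0.36 on array 42 and 0.11 to 0.28 on the other 4. The microglia and macrophage markers varied unequally. The SD between arrays was 0.97 for Aif1 and 0.82 for C1qb, but 0.15 for Cx3cr1 and 0.12 for Cd68. Immediate early genes, 10 measured of 12, averaged 1.16 and 0.93 on arrays 39 and 40 and 0.01 to 0.41 on the other 6. Rod photoreceptor genes, 7 measured of 9, were positive on all arrays and higher in set 1 (0.46 to 0.95) than on the neighbouring arrays of set 2 (0.02 to 0.31). Ganglion cell markers averaged between -0.36 and -0.10. Cone markers (6 measured of 7, 0.14 to 0.43) and amacrine cell markers (7 measured of 8, 0.03 to 0.26) averaged above 0 on all 8 arrays. Bipolar cell markers (6 of 7, -0.00 to 0.28) and those of Mueller glia and astrocytes (9 of 9, -0.13 to 0.20) averaged above 0 on 7 arrays. Those of horizontal cells (4 of 4) ranged from -0.33 to 0.19 and those of vascular cells (8 of 8) from -0.20 to 0.11.

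Several of these markers passed the test on the positive side as deposited, as Hspa1a did. They were the cone transducin Gnat2 at 0.54 ± 0.21 (SD, n = 8, limma adjusted p = 0.0105), the bipolar genes Otx2 at 0.49 ± 0.21 and Trpm1 at 0.42 ± 0.16, the Mueller glia gene Rlbp1 at 0.50 ± 0.31 and the rod gene Rp1 at 0.83 ± 0.57. The immediate early genes Egr2 at 1.54 ± 0.84, Egr1 at 0.68 ± 0.40 and Jun at 0.48 ± 0.31 passed as well. None of these 8 genes passed with turned signs. As deposited, 1 of 6 cone, 2 of 6 bipolar and 1 of 9 Mueller glia and astrocyte genes passed. So did 1 of 7 rod and 3 of 10 immediate early genes. No gene passed among the 7 amacrine, 10 microglia and macrophage, 8 vascular and 4 horizontal cell markers. Over all genes the share was 0.568% on the positive side. The bipolar gene Pcp2 was negative on 8 of 8 arrays (-0.37) without passing. With turned signs, when 28.1% of all genes passed, other genes of these lists did so. Sag, Glul, Fos, the amacrine gene Gad1 and the vascular genes Tek and Kdr were positive. Opn1sw, Prkca, Sox9, Egr3, the amacrine gene Th and the vascular genes Cldn5 and Rgs5 were negative. The part of these cells in the members' ratios was not tested. Levels behind these ratios were not analysed here, so no marker could be called absent.

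**Figure D3:**
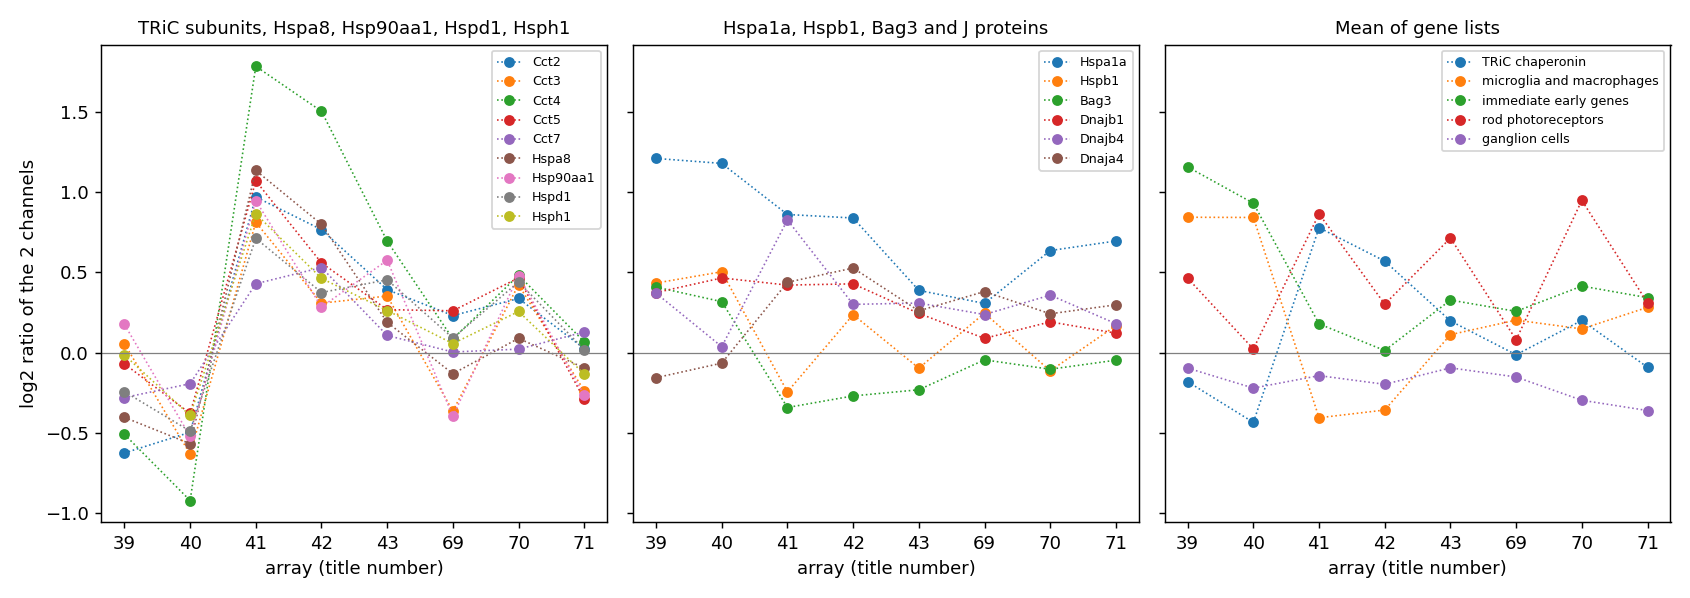
Log2 ratio (y axis) on each array (x axis, title numbers), for single members in the left and middle panels and for list means in the right panel, where dotted lines only join the points of 1 gene or list. By gene averages over probes, Cct2, Cct4, Cct5, Cct7 and Hspa8 peak on arrays 41 and 42, and Cct3 on array 41 only. Hspa1a and Bag3 are highest on arrays 39 and 40, as is the mean of the microglia and macrophage markers (0.84 on both).

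Calls also depended on these arrays. Without arrays 41 and 42, in which form 0.385% of all genes passed, no member passed, although Hspa1a kept a mean of 0.74 (limma adjusted p = 0.0735). Without arrays 39 and 40, in which form 2.65% of all genes passed, Hspa1a (0.62, limma adjusted p = 0.021) and Dnaja4 (0.36, limma adjusted p = 0.0371) passed and Hspa13 did not. When neighbouring arrays were averaged and 4 averages tested, limma called 0 of 14802 genes (1928 had an unadjusted p below 0.05), and the limma adjusted p was 0.101 for Hspa1a and 0.167 for Hspa13. With neighbours as a random block and the set as a covariate, 3.04% of all genes passed, among them Hspa1a (limma adjusted p = 0.0117) and Hspa13 (limma adjusted p = 0.0337).

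The members were measured by 114 probes, 16 members by 1 probe and 33 by several. Among the 33, probe means lay within 0.3 of one another in 22 and on both sides of 0 in 16. The widest range was that of Cct5, 0.86, followed by Cct3, 0.62, from -0.16 to 0.47. Means of Hspa8 ran from -0.18 to 0.36, and those of Hsp90aa1 from -0.06 to 0.48. The SD between arrays had a median of 0.37 over the 76 probes listed under a RefSeq transcript and of 0.29 over the other 38. Of single member probes, only probe 34107 of Hspa1a passed.

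**Figure D4:**
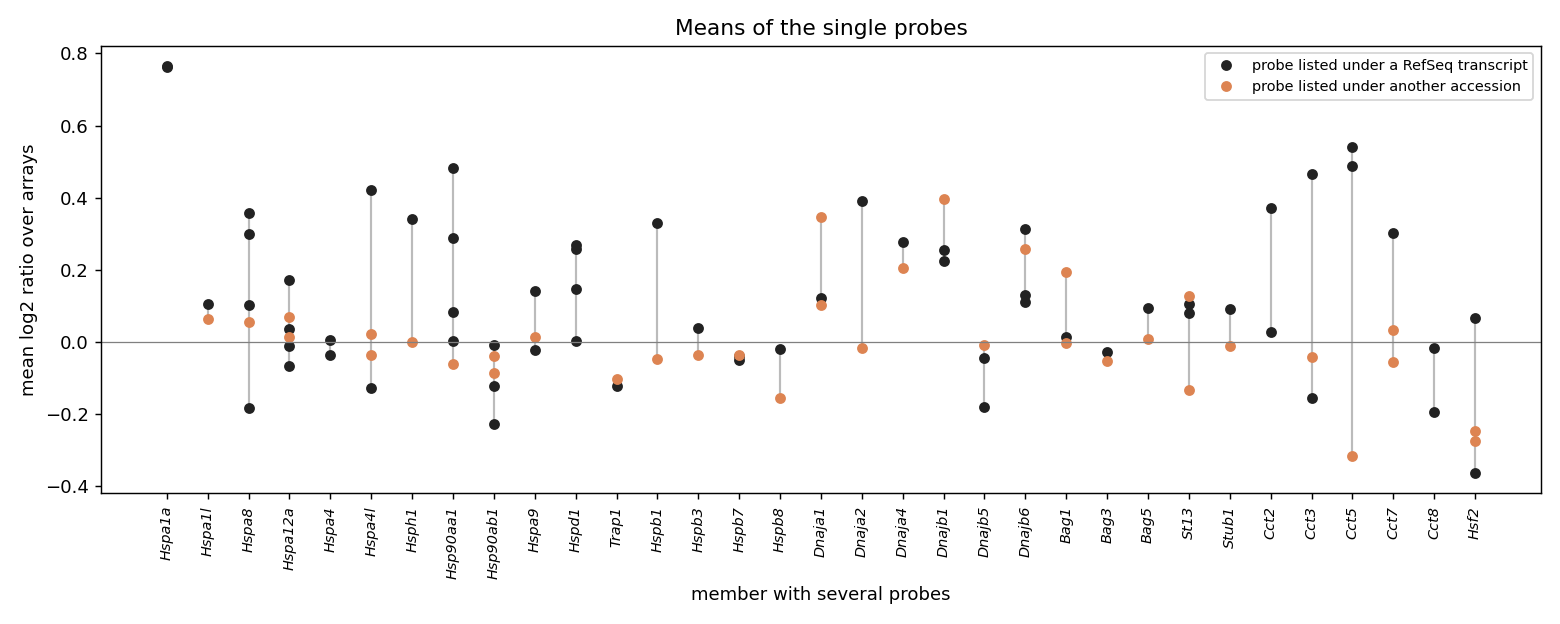
Mean log2 ratio over arrays (y axis) of each probe of the 33 members with several probes (x axis), black for probes listed under a RefSeq transcript and orange for others, with a grey line joining the probes of a gene. The 2 probes of Hspa1a coincide at 0.76, whereas the 3 probes of Cct5 run from -0.32 to 0.54.

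Of 81 other genes of the same machinery, 68 were measured, with 40 positive and 28 negative means and a median of 0.04. As deposited 1 of the 68 passed, on the negative side, against 2.19% of all genes (1.62% negative). With turned signs 14 passed, 10 positive and 4 negative, against 28.1% of all genes (13.6% positive and 14.5% negative). With the sets as a covariate 4 passed, against 6.27% of all genes. The call was Hsf4, a heat shock factor best known from the lens, at -0.60 ± 0.30 (SD, n = 8, limma adjusted p = 0.0149). It was negative on 8 of 8 arrays, and its mean with turned signs was -0.08 (limma adjusted p = 0.804). Hsf1, Hsf2 and Hsf4 thus all had negative means as deposited, and with turned signs Hsf2 was at 0.00.

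The largest means of the other lists did not pass as deposited. Among 15 other Hsp70 and Hsp90 co-chaperones they were 0.26 for Ptges3 (p23, which closes the Hsp90 cycle) and -0.11 for Unc45a, a myosin chaperone. Among 26 other J proteins they were 0.27 for Dnajc14 and -0.12 for Dnajc15. The list of prefoldin and chaperonin partners, 11 genes measured, also held Cct6a, a further TRiC subunit. Cct6a stood at 0.11 ± 0.23 and did not pass as deposited (limma adjusted p = 0.719), whereas it passed with turned signs (0.19, limma adjusted p = 0.0484). In the same list Pdcl, a TRiC cofactor in the folding of G protein beta subunits, stood at 0.42 ± 0.30 and was positive on 8 of 8 arrays (limma adjusted p = 0.0708), and the prefoldin subunit Pfdn5 stood at -0.13.

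Among 8 genes of mitochondrial protein quality control, the protease Htra2 stood at -0.53 ± 0.40 and was negative on 8 of 8 arrays (limma adjusted p = 0.0708), and the protease Clpp stood at 0.15. Among 8 measured stress targets and further heat shock factor genes, the phosphatase Dusp1, also an early response gene, had the highest mean, 0.46 ± 0.38, and was positive on 7 of 8 arrays (limma adjusted p = 0.0949). With turned signs Pdcl (0.08), Htra2 (-0.01) and Dusp1 (-0.18) did not pass, and Clpp did (-0.23). When the sets were a covariate, Pdcl (limma adjusted p = 0.0396) and Dusp1 (limma adjusted p = 0.0431) passed on the positive side, as did the J protein Dnajc21, at 0.26 ± 0.24 (limma adjusted p = 0.0369). Hsf4 passed on the negative side (limma adjusted p = 0.00888), and Htra2 did not (limma adjusted p = 0.0509).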

How the data were processed

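Gene expression was measured on 8 two-colour Agilent arrays, each setting large against small ganglion cells, so all arrays form 1 group. The values are log2 ratios from the authors' deposited value table of 41048 probes. The sources used here give neither background correction nor normalization nor ratio direction. No intensities were analysed, so signal over background is unknown and the number of arrays limits precision. The log base was worked out from the deposited values: of 88 distances between common values, 69 lay on a log2 of a small whole-number ratio, 22 on a log10 and 2 on a natural log.

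Probes with 1 gene symbol (23374) in the platform annotation were averaged per gene. 48 probes had several symbols and 17626 none. RefSeq held 23327 of the named probes' genes by identifier, and the platform's symbols were kept. Values of a size above 15 (73) and exact zeros (574) were set to missing, and 30 were missing as deposited. Genes needed 6 arrays. Means were tested against 0 with limma 3.58.1 in R 4.3.3 (lmFit, eBayes), adjusted by Benjamini-Hochberg over 14801 genes, and the code was tested on simulated data. Promoter search and figures used Python 3.11.15 and matplotlib 3.10.9. Sets of arrays were the blocks that correlate positively over all probes. Alternatives changed missing values, centring, scaling, probe summary, arrays needed, set, neighbours, signs, array weights and moderation, or left out arrays. A filter on dim probes and the slide as a block could not be run without intensities.

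The members and gene lists were chosen with earlier results of these data known. Every member is named, with the range over arrays for members called as deposited, with the set covariate, the neighbour block or the averages, for the 3 largest means of each group (2 in groups under 4), and for Hspa1a, Hspa1b, Hspa8, Hspb1, Hsph1, Hsp90aa1, Dnajb1, Bag3, Hsf1 and Hsf2. From the other lists, called genes and the largest mean on each side of 0 are named.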

Additional observations from a re-analysis of the deposited data

Results flagged for a closer look

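Among the 49 members, 4 had a single array far from the other arrays of the group by Dixon's test. With independent, normally distributed values, chance alone would trigger it in about 1 of 20 genes. These arrays fall into 2 sets and include technical subreplicates, so that rate may not hold. The share over all genes is not given here, so the count is not read as a result about the members. Dnajb4 was 0.83 on array 41, and its next highest value was 0.37. Bag1 was 0.58 on array 40, with the next highest value at 0.08, and 1 of its 3 probes read 2.01 there. Hspa12a was 0.28 on array 39, with the next highest value at 0.08. Dnajb5 was -0.23 on array 70, with the next lowest value at -0.10. The 4 values fell on 4 different arrays.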

How the results depend on the processing

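As deposited, 324 genes and 2 members passed. The count of genes was 928 with the set covariate, 0 with averages of neighbouring arrays, 4161 with the signs of set 2 turned, 572 with array weights, 57 without arrays 41 and 42, and 134 to 330 when each array was left out in turn. The count of members was 4, 0, 9, 4, 0 and 1 to 2 in the same order, and 1 with robust moderation. Hspa1a passed in all 8 leave-one-out fits and Hspa13 only without array 41. Leaving out arrays 39 and 40, or 41 and 42, was chosen after seeing the data. Under centring, scaling, median of probes, all 8 arrays required, end-of-scale values kept, or the neighbour block with the set covariate, both counts stayed within 1.5 times. A change of sign in a member that passed in either form was seen only with turned signs: Hspa2 to 0.39, Hspa13 to 0.12, Hspb6 to -0.24, Hspb7 to 0.21 and Dnajb2 to -0.28. With members that passed in neither form included, the sign changed in 18 members with turned signs, 12 without arrays 41 and 42, 4 without arrays 39 and 40, 3 with array weights, 2 with the median of probes, 1 with scaled arrays, 1 with end-of-scale values kept and 1 to 8 when an array was left out, and 19 of 98 single probes had the opposite sign to their gene. With end-of-scale values kept, Bag2 moved to 1.89. The causes were not tested. The mean over the members ranged from 0.02 without arrays 41 and 42 to 0.11 with end-of-scale values kept. No paired analysis was possible because the arrays form 1 group, so no replicate number links 2 groups. Each ratio already sets large against small cells on 1 array, and the fits that join neighbouring arrays rest on title numbers, not on a pairing in the labels.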
